A study of Mus musculus with 6 samples.

Results

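The 8 genes described here are the ligands and receptors of the ErbB family in mouse heart cells: the neuregulin gene Nrg1, the receptor genes Egfr, Erbb2, Erbb3 and Erbb4, and the EGF-type ligand genes Hbegf, Areg and Ereg. They were taken by name, not by their values, from 27179 genes of a bulk count table and 30716 genes of the single-cell tables, and all 8 were present in both. The question put to them was which cells held the ligand RNA and which the receptor RNA when immature cardiomyocytes were grown with neonatal or adult heart fibroblasts. The labels give the strain C57BL/6 for every sample. The bulk libraries were 2 of cardiomyocytes co-cultured with neonatal fibroblasts (imCM-NF) and 2 of cardiomyocytes co-cultured with adult fibroblasts (imCM-AF). The cardiomyocytes came from newborn hearts, the fibroblasts had been passaged in culture, and both kinds of cells were separated by dye-based flow sorting after co-culture. Single cells were read on 2 ICELL8 nanowell chips, one labelled cardiomyocytes and one labelled fibroblasts, with 1 well per imaged cell.

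ErbB receptors are receptor tyrosine kinases that work as pairs. Neuregulin binds ErbB4 or ErbB3, and ErbB2, which has no ligand of its own, joins either as the signalling partner. In the heart, neuregulin is best known as a signal from endothelial cells to cardiomyocytes that carry ErbB4 and ErbB2. EGFR is the receptor of amphiregulin and of EGF itself, while heparin-binding EGF and epiregulin bind both EGFR and ErbB4. These ligands are made as membrane proteins and are released by proteases of the ADAM family.

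By RefSeq positions on mm10, Egfr lay at chr11:16752203-16913907 and Erbb2 at chr11:98412484-98437716, both on the plus strand. Erbb3 lay at chr10:128567523-128589635 and Erbb4 at chr1:68031884-69108576, both on the minus strand. Among the ligands, Nrg1 lay at chr8:31807452-32891609 on the minus strand. Areg at chr5:91139599-91148432 and Ereg at chr5:91074617-91093649 were neighbours on the plus strand. Nrg1, Erbb2, Egfr and Ereg each overlapped at least 1 antisense gene in the GENCODE annotation, and with no strand setting stated for the counting, reads of such partners cannot be told apart.

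The 250 bases before the annotated start are shown for Egfr and Erbb2, the receptor genes with a RefSeq promoter entry (GRCm38.p6) at the start of the gene, so that a receptor gene that varied widely between the cell classes below and one that was more even can be set side by side. Capitals mark a GC box (GGGCGG, or CCGCCC on the other strand) or a CCAAT box (CCAAT, or ATTGG on the other strand), and TATAAA and TGANTCA were searched as well on either strand. The windows lie at chr11:16751953-16752202 and chr11:98412234-98412483, and read 5′ to 3′:
Egfr: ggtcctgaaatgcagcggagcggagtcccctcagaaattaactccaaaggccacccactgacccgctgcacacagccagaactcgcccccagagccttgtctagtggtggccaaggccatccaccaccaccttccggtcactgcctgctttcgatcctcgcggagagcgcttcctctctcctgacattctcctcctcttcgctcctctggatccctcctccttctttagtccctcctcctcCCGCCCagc
Erbb2: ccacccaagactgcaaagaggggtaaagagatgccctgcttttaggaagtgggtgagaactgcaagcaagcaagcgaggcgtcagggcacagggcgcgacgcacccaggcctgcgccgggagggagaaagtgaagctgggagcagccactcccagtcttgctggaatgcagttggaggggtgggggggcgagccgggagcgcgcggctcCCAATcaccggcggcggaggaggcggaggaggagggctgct
The Egfr window held 1 GC box, beside 32.7% of 32851 promoter windows of this length that held at least 1. The Erbb2 window held 1 CCAAT box, beside 33.9% of all windows. Neither window held TATAAA, found in 12.4% of windows, or TGANTCA, the AP-1 motif, found in 6.75%. These matches describe letters in the window and were not tied to any binding data.

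The 4 bulk libraries held 9278909 to 12088577 counts. On the chips, 2247 of 2462 wells other than controls passed the filter (at least 500 genes, over 50% of reads aligned, and no more than 2 SD between a well's UMIs and the mean), with a median of 22542 UMIs. They were clustered without the 8 genes and without their pathway genes, and 13 clusters gave 800 cardiomyocyte-like wells, 556 fibroblast-like wells, 111 endothelial-like wells and 38 macrophage-like wells. Cluster 6, with 166 wells that all carried the name AF0, met the marker rule for epicardial or mesothelial cells through 3 raised markers of 8, but equally had 3 raised fibroblast markers of 13; since it held AF0 wells alone it is called the AF0 cluster and given no cell type. A further 576 wells in clusters 4, 5 and 7 were left unnamed, among them those with the fewest UMIs. Cluster 8, with 152 wells, was counted as cardiomyocyte-like on 3 raised markers of 15, none of them among its 10 leading genes. The cardiomyocyte-like class was smaller under 3 of the alternative settings. It held 684 wells at a clustering resolution of 0.5, 680 with 15 neighbours and 651 with at least 1000 genes per well. Which wells left the class was not followed. The chips shared 269 well barcodes. No doublet caller was run, because wells had been chosen by imaging. In 10 empty control wells the 8 genes together gave 2 UMIs, both of Hbegf on the fibroblasts chip. Those wells held only 1465 UMIs in all on the cardiomyocytes chip and 3587 on the fibroblasts chip. That is too few to measure the background of any of the 8 genes.

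Among the receptor genes in bulk cardiomyocytes, Erbb2 was the most abundant per length, at a mean of 10.6 CPM (counts per 1000000 counts of a library) per kb of exon. Egfr followed at 1.98, Erbb3 at 0.833 and Erbb4 at 0.167. Among the ligands, Hbegf was at 28.3 and Ereg at 19.1 on this scale, with Nrg1 at 2.03 and Areg at 1.18. The lowest of the receptors in bulk RNA was thus Erbb4, the neuregulin receptor of heart muscle. The order was another in the cardiomyocyte-like single wells. There Erbb4 was at 7.46 UMIs per 1000000, above Egfr at 3.08 and Erbb3 at 1.38, with no scaling by length. The bulk libraries also held fibroblast and endothelial marker RNA, as given below, and its part in the bulk order was not tested.

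None of the 8 genes was called between imCM-AF and imCM-NF by edgeR, nor by DESeq2 or limma-voom, where a call needed an adjusted p below 0.05 together with a log2 fold change beyond 0.58 in either direction. That rule called 1564 of 14041 genes tested, or 11.1%, with 6.15% higher and 4.99% lower in imCM-AF. Values below are TMM-scaled CPM, and every adjusted p in the bulk comparison is from edgeR's quasi-likelihood test with Benjamini-Hochberg adjustment over all 14041 genes. Of the 8, 2 had an unadjusted edgeR p under 0.05, and the same 2, Egfr and Hbegf, had an adjusted p under 0.05, beside 27.0% of all genes tested. Nothing in the labels ties the libraries to separate cultures or animals, so these p-values measure the spread between these libraries only.

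Egfr was at 24.1 and 27.2 CPM in imCM-NF and at 20.9 and 17.7 in imCM-AF. Both imCM-AF libraries lay below both imCM-NF libraries. On the log2 scale the difference was -0.42 ± 0.13 (SE, 2 libraries a group), and the edgeR adjusted p was 0.0244. The size did not reach the fold threshold, and the adjusted p was 0.156 with DESeq2 and 0.0561 with the replicate block. Leaving out imCM-NF 2 gave an adjusted p of 0.223 and leaving out imCM-AF 2 gave 0.291 in edgeR.

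Erbb2 was at 60.6 and 56.4 CPM in imCM-NF and at 53.4 and 49.6 in imCM-AF. The groups did not overlap, yet the log2 difference of -0.18 ± 0.10 (SE) did not pass (edgeR adjusted p = 0.168). Erbb3, which pairs with ErbB2 for neuregulin signalling, was at 5.02 and 4.05 in imCM-NF and at 5.93 and 5.04 in imCM-AF. The difference was 0.29 ± 0.23 on the log2 scale (edgeR adjusted p = 0.378). Erbb4 rested on 18 to 28 counts per library and was at 2.12 and 1.49 CPM in imCM-NF against 2.28 and 2.35 in imCM-AF. With a 95% interval from -0.25 to 1.04, the log2 difference of 0.39 ± 0.33 (edgeR adjusted p = 0.401) left a 2-fold difference inside the error.

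**Figure D1:**
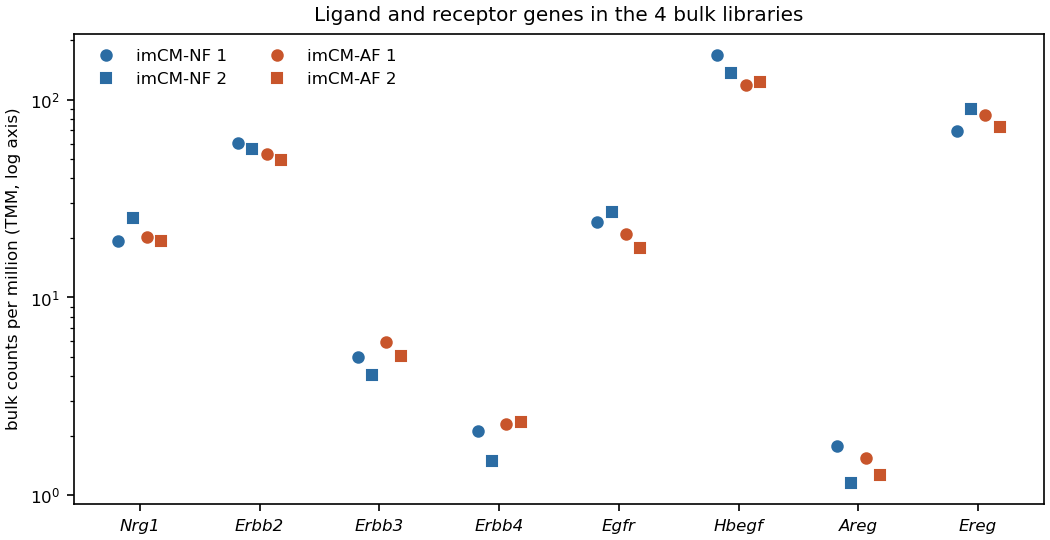
TMM-scaled CPM (log axis) of each gene in the 2 imCM-NF libraries (blue) and the 2 imCM-AF libraries (orange), 1 point per library. Hbegf is the highest and Areg and Erbb4 are the lowest in every library, and the groups lie close together for all 8 genes.

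Hbegf, the heparin-binding ligand at chr18:36504927-36515805 on the minus strand, was at 168.0 and 136.2 CPM in imCM-NF and at 118.8 and 123.4 in imCM-AF. Both imCM-AF libraries were lower, by a log2 difference of -0.33 ± 0.11 (SE; edgeR adjusted p = 0.0322). As for Egfr, this was under the fold threshold, and the adjusted p was 0.098 with DESeq2 and 0.0887 with the replicate block. It was 0.051 with upper-quartile scaling, and 0.216, 0.157 and 0.104 in edgeR without imCM-NF 1, imCM-AF 1 and imCM-AF 2.

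Ereg, coding for epiregulin, was at 69.8 and 89.3 CPM in imCM-NF and at 83.2 and 73.1 in imCM-AF. The groups overlapped, at a log2 difference of -0.03 ± 0.11 (SE) and a 95% interval from -0.25 to 0.19 (edgeR adjusted p = 0.867). Nrg1 was at 19.3 and 25.4 in imCM-NF and at 20.3 and 19.3 in imCM-AF, and overlapped as well (log2 fold change -0.19 ± 0.14, edgeR adjusted p = 0.338). Areg, coding for amphiregulin, rested on 14 to 17 counts per library, and the log2 difference of -0.03 had a 95% interval from -0.78 to 0.72 (edgeR adjusted p = 0.963). For 5 of the 8 genes the groups did not overlap, beside 66.0% of all genes tested, so this share was close to the background.

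**Figure D2:**
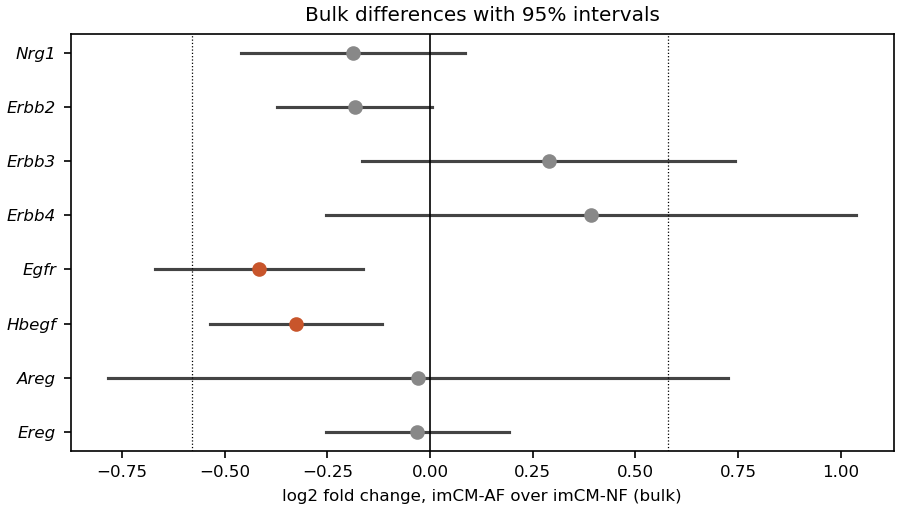
Log2 fold change of imCM-AF over imCM-NF for each gene, with the 95% interval as a line; orange points have an edgeR adjusted p under 0.05 and dotted lines mark the fold threshold of 0.58. Egfr and Hbegf lie left of 0 with intervals that exclude it, and no point passes a dotted line.

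Markers of other cell types moved in the same bulk comparison. Of 13 fibroblast markers, 7 were called lower and 1 higher in imCM-AF, and their summed level was 18560 and 20640 CPM in imCM-NF against 12770 and 10130 in imCM-AF. Of 12 endothelial markers, 5 were called lower, with sums of 1036 and 1077 against 709.7 and 679.7. Of 15 cardiomyocyte markers, 2 were called higher and 1 lower, with sums of 31090 to 43010 against 38210 to 41810. In bulk RNA fewer cells of a type and less RNA per cell cannot be told apart, and the part of these markers in the Egfr and Hbegf differences was not tested.

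Around the receptors, few genes of the pathway lists were called. Only the ligand-shedding list and the list of feedback inhibitors and ERK-response genes had any. Their shares were close to the 11.1% called over all genes tested. In the ligand-shedding list 1 of 10 genes was called lower and none higher: Adam15, a membrane protease of the ADAM family, at 130.5 and 141.1 CPM in imCM-NF and 97.7 and 83.0 in imCM-AF (log2 fold change -0.59 ± 0.10, edgeR adjusted p = 0.000511). It sat just past the fold threshold and was not called under upper-quartile scaling, without imCM-NF 2 or without imCM-AF 2. The median log2 fold change of the list was -0.26, beside 0.00113 over all genes tested. In the list of feedback inhibitors and ERK-response genes 2 of 16 were called higher and none lower, with a median of 0.20. Fos, an immediate-early transcription factor, rose from 139.4 and 126.9 CPM to 255.6 and 278.3 (log2 fold change 1.0 ± 0.10, edgeR adjusted p = 2.74e-06). Phlda1, a growth factor-induced gene, rose from 62.8 and 52.1 to 116.4 and 123.6 (log2 fold change 1.07 ± 0.10, edgeR adjusted p = 1.55e-06). On an edgeR adjusted p under 0.05 alone, 8 of the 16 passed, 5 higher (Fos and Phlda1 among them) and 3 lower, beside 27.0% of all genes tested. By that rule 4 of the 10 ligand-shedding genes passed, all lower. Of 27 adaptors and kinases 5 passed, 3 higher and 2 lower, and no receptor regulator or further EGF-family ligand did.

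No gene was called among 27 adaptors and kinases, 11 receptor regulators or 5 EGF-family ligands outside the 8. The largest differences there were Mapk3, which encodes the kinase ERK1, at a log2 difference of -0.46 ± 0.10 (edgeR adjusted p = 0.00245), and Lrig3, with -0.59 ± 0.27 (adjusted p = 0.118). Egf, the founding ligand of the family, was at 0.446 and 0.743 CPM in imCM-NF and at 1.19 and 1.34 in imCM-AF (log2 fold change 1.03 ± 0.46, edgeR adjusted p = 0.103). The medians of these 3 lists were -0.02, -0.12 and 0.41.

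In single wells the receptor genes separated by cell class. Each level is the UMIs of a gene pooled over wells, per 1000000 UMIs of those wells and again called CPM, with a 95% exact Poisson interval. Such intervals cover counting error only. Each chip was 1 library, so there was no test, and UMIs of the rarer genes came in bursts from a few wells.

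Erbb4 was found mainly in cardiomyocyte-like wells, at 7.46 CPM (6.41 to 8.64) from 179 UMIs. As a mean over wells, which weights each well equally, this level was 11.5. Fibroblast-like wells were at 0.628 (0.343 to 1.05) and endothelial-like wells had 1 UMI. No Erbb4 UMI was seen in 38 macrophage-like wells or in the 166 wells of the AF0 cluster, where a count of 0 allows a share of up to 1.81% of wells with a UMI. By wells, 7.5% of cardiomyocyte-like and 1.62% of fibroblast-like wells had an Erbb4 UMI, at median depths of 23400 and 31921 UMIs. At an equal depth of 10000 UMIs per well the shares were 4.40% of 616 wells and 0.729% of 488 wells. The separation held on each chip, with 7.004 CPM in cardiomyocyte-like and 0 in fibroblast-like wells of the cardiomyocytes chip, and 14.6 and 0.794 on the fibroblasts chip. The 14.6 (9.04 to 22.3) rested on 21 UMIs in 5 of 35 wells, 90.5% of them from 3 wells.

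Erbb2, the partner receptor, was more even. It stood at 9.75 CPM (8.54 to 11.1) in cardiomyocyte-like wells, 5.92 (4.95 to 7.02) in fibroblast-like wells, 5.17 (3.16 to 7.98) in endothelial-like wells and 7.17 (5.45 to 9.24) in the AF0 cluster. The cardiomyocyte-like interval lay apart from the fibroblast-like interval but overlapped that of the AF0 cluster. By chip the contrast was 9.97 (8.71 to 11.4) against 2.36 (1.18 to 4.22) on the cardiomyocytes chip, and it was absent on the fibroblasts chip, at 6.26 (2.86 to 11.9) against 6.86 (5.69 to 8.20). In cluster 11, 45 cardiomyocyte-like wells led by Sln, Myl7 and Nppa, genes typical of atrial muscle, Erbb2 was at 25.7 (18.5 to 34.7) and Erbb4 at 18.96 (12.9 to 26.9), the highest of all clusters for both genes. In those wells 57.1% of the Erbb2 UMIs and 87.1% of the Erbb4 UMIs came from 3 wells. Erbb2 and Erbb4 UMIs occurred together in 8 of 800 cardiomyocyte-like wells and in 0 of 556 fibroblast-like wells. Each gene by itself was rare too. Erbb2 was seen in 68 and Erbb4 in 60 of the 800 wells, and in 41 and 9 of the 556. With so few wells, the counts of both genes together do not set the classes apart. Erbb3 had 72 UMIs in all kept wells, with 1.38 CPM (0.947 to 1.93) in cardiomyocyte-like and 0.538 (0.278 to 0.940) in fibroblast-like wells, which is too little to set either class apart from the AF0 cluster at 0.364 (0.0751 to 1.06).

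Egfr had the opposite distribution. It was at 20.8 CPM (18.9 to 22.7) in fibroblast-like wells and 42.3 (37.9 to 46.9) in the AF0 cluster, against 3.08 (2.42 to 3.87) in cardiomyocyte-like wells. Endothelial-like wells were at 8.27 (5.66 to 11.7), with 84.4% of their 32 UMIs from 3 wells, and macrophage-like wells had none. The share of wells with an Egfr UMI was 34.3% in the AF0 cluster, 17.4% in fibroblast-like wells and 3.63% in cardiomyocyte-like wells. At 10000 UMIs per well these shares were 19.4%, 10.1% and 1.73%. Fibroblast-like wells were at 23.4 and 20.1 CPM and cardiomyocyte-like wells at 3.10 and 2.78 on the cardiomyocytes and fibroblasts chips.

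**Figure D3:**
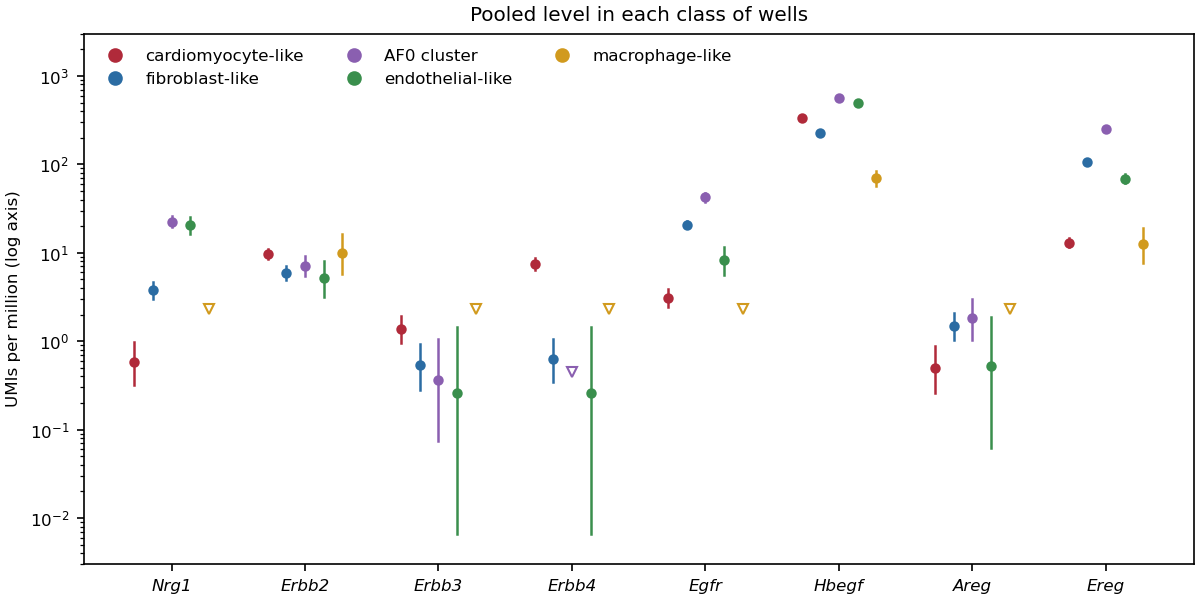
UMI-based CPM (log axis) of each gene pooled over the wells of each class, with 95% exact Poisson intervals as lines; open triangles mark the upper limit of a class with 0 UMIs. Erbb4 is highest in cardiomyocyte-like wells, Egfr and Ereg are highest in the AF0 cluster, Nrg1 is high there and in endothelial-like wells, and Hbegf is above 200 in every class but the macrophage-like wells.

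Among the ligands, Nrg1 marked endothelial-like wells and the AF0 cluster. It was at 20.4 CPM (16.2 to 25.5) in endothelial-like wells and 22.5 (19.4 to 26.0) in the AF0 cluster, against 3.77 (3.01 to 4.66) in fibroblast-like wells and 0.583 (0.319 to 0.979) in cardiomyocyte-like wells. Macrophage-like wells had no Nrg1 UMI. A UMI was present in 24 of 111 endothelial-like wells (21.6%) and in 10 of 800 cardiomyocyte-like wells (1.25%), and at 10000 UMIs per well these shares were 12.8% and 0.578%. The endothelial-like level came from cluster 10, at 31.6 CPM (24.9 to 39.6), while cluster 12, led by Fabp4 and Pcdh17, was at 2.05 (0.422 to 5.98). Endothelial-like wells led on each chip, at 11.3 (7.29 to 16.6) on the cardiomyocytes chip and 32.7 (24.6 to 42.7) on the fibroblasts chip. There the AF0 cluster was at 22.5, with an overlapping interval. Of the endothelial-like UMIs, 60.0% of 25 on the cardiomyocytes chip and 59.3% of 54 on the fibroblasts chip came from 3 wells. On the cardiomyocytes chip alone fibroblast-like wells did not exceed cardiomyocyte-like wells, at 0.429 from 2 UMIs and 0.621 from 14 UMIs. In fibroblast-like wells 58.3% of the Nrg1 UMIs came from 3 of 556 wells.

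Hbegf was the most widespread of the ligands. A UMI was found in 92.8% of the wells in the AF0 cluster, 77.5% of endothelial-like wells, 72.5% of cardiomyocyte-like wells and 69.4% of fibroblast-like wells, and in 28.9% of macrophage-like wells. The levels were 569.8, 491.6, 333.5, 225.5 and 69.2 CPM in the same order, with intervals that did not touch. By chip, cardiomyocyte-like wells were above fibroblast-like wells on the cardiomyocytes chip (342.4 and 183.6) and below them on the fibroblasts chip (193.4 and 236.6). Ereg was at 250.9 (240.2 to 262.0) in the AF0 cluster, 106.9 (102.7 to 111.3) in fibroblast-like wells, 68.8 (60.7 to 77.5) in endothelial-like wells, 13.0 (11.6 to 14.6) in cardiomyocyte-like wells and 12.5 (7.62 to 19.3) in macrophage-like wells. The last pair did not differ beyond their intervals. Within the cardiomyocyte-like wells Ereg was at 1.29 (0.720 to 2.12) in cluster 1 and 32.7 (27.9 to 38.1) in cluster 8, so the class value depended in part on whether cluster 8 was counted in. Clusters 9 and 11 of that class were at 16.7 (13.5 to 20.4) and 23.9 (17.0 to 32.6), with 50.5% and 79.5% of their UMIs from 3 wells. Areg was rare throughout, with 90 UMIs in 29 of 2247 wells, and was at 1.48 (1.02 to 2.08) in fibroblast-like and 0.5001 (0.258 to 0.874) in cardiomyocyte-like wells. Those levels rested on 6 of 556 and 5 of 800 wells, with 69.7% and 83.3% of the UMIs from 3 wells. The shares of wells with a UMI, 1.08% (0.397 to 2.33) and 0.625% (0.203 to 1.45), did not differ beyond their intervals. Of 97 fibroblast-like wells with an Egfr UMI, 76 also had an Hbegf UMI and 50 an Ereg UMI. These shares were close to those over all 556 fibroblast-like wells, of which 386 had an Hbegf UMI and 264 an Ereg UMI.

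By the name on the well, the fibroblasts chip held wells named NF0 and NF and wells named AF0 and AF, with 2 Types of each, and the cardiomyocytes chip held 2 Types named NCM0 and 3 each named NFNCM and AFNCM. A Type is the text that the authors' well list gives to the wells of 1 position of the source plate. The labels do not say what culture, time or animal each name stands for, so Types are not replicates and their differences were not tested. Most AF0 wells fell in the AF0 cluster (166 of 170), and none of the others did.

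Nrg1 was at 21.8 and 22.2 CPM in the AF0 Types and at 1.97 and 3.43 in the NF0 Types. The pooled AF0 level was 7.67 times the NF0 level. Egfr was at 31.0 and 48.4 in AF0 against 10.3 and 4.74 in NF0, a ratio of 6.13. Ereg was at 282.4 and 226.4 against 51.5 and 48.5, a ratio of 4.99, and Hbegf at 532.3 and 580.6 against 172.7 and 232.1, a ratio of 2.68. In each case both AF0 Types lay above both NF0 Types. Erbb4 went the other way, with no UMI in either AF0 Type and 1.53 and 2.24 CPM in the NF0 Types; a count of 0 over the AF0 wells allows up to 0.358 CPM. Of 7 members with at least 20 UMIs in these wells, 4 were higher in both AF0 Types and 1 lower, beside 27.8% and 24.6% of 14601 genes.

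Summed markers of several other cell types moved with the same names. Cardiomyocyte markers were at 430.1 and 192.5 CPM in the AF0 Types and 5547 and 5264 in the NF0 Types, and 21 NF0 wells were cardiomyocyte-like against 0 AF0 wells. Summed fibroblast markers were at 6288 and 6676 in AF0 and 6276 and 7212 in NF0. Endothelial markers, which go with the class where Nrg1 was high, summed to 608.2 and 373.6 in AF0 against 101.5 and 129.0 in NF0, though 1 AF0 well and 6 NF0 wells were endothelial-like. Epicardial or mesothelial markers summed to 341.9 and 349.9 against 26.2 and 43.2, and macrophage markers to 191.3 and 56.0 against 500.6 and 915.6. Within NF0, fibroblast-like wells had Erbb4 at 1.44 CPM (0.720 to 2.58) and cardiomyocyte-like wells at 6.67 (2.45 to 14.5), from 11 and 6 UMIs. The median depth of kept wells was 35046 and 44197 UMIs in AF0 and 17035 and 51940 in NF0. The part of depth and of other cell types in these differences was not tested.

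**Figure D4:**
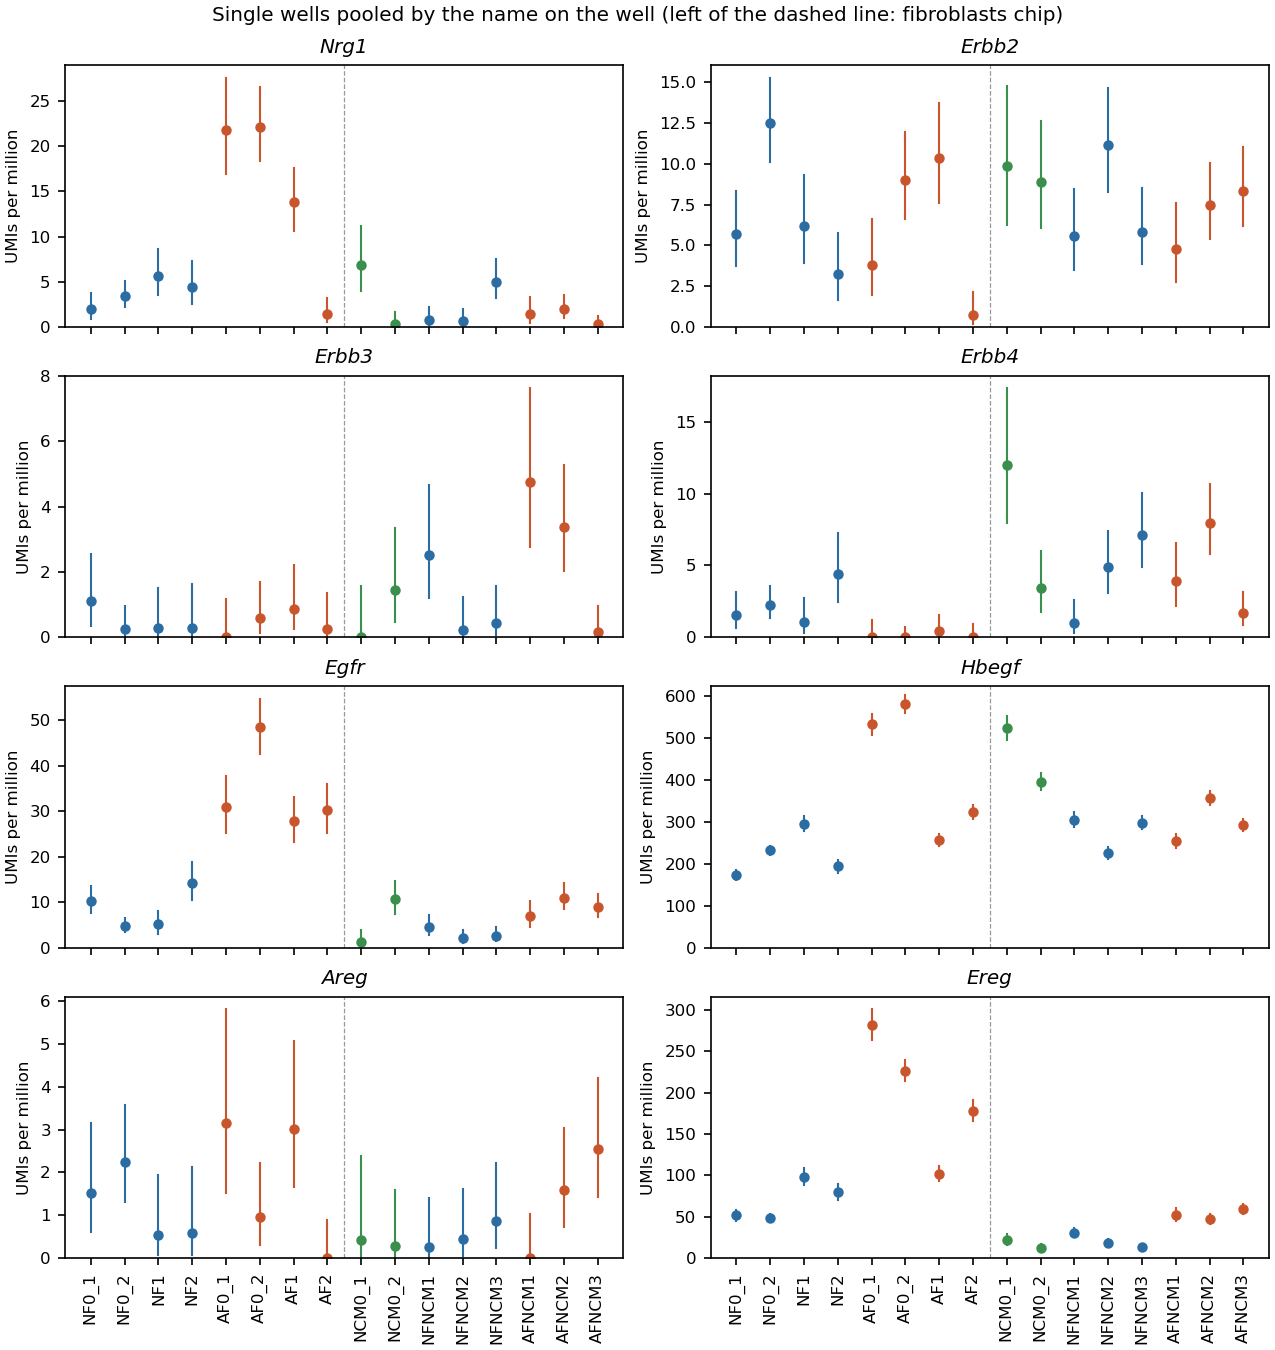
CPM of each gene pooled over the wells of each Type, with 95% exact Poisson intervals; blue marks names with NF, orange names with AF and green NCM0, and the dashed line parts the fibroblasts chip from the cardiomyocytes chip. Egfr and Ereg are higher in every AF-named Type than in the NF-named Types of the same chip and set, while Erbb4 is at or near 0 in the 4 AF0 and AF Types.

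Between the AF and NF Types, which lack the 0, the contrast was smaller. Egfr was at 27.8 and 30.2 CPM in AF against 5.12 and 14.1 in NF, a ratio of 3.07, and Ereg was at 101.7 and 177.9 against 97.9 and 79.9, a ratio of 1.54. Erbb4 had 2 UMIs in all AF wells and was at 1.08 and 4.41 in NF, where 14 of the 15 UMIs of NF2 came from 1 well. Summed cardiomyocyte markers were at 680.7 CPM in AF and 3849 in NF, and 2 AF wells against 12 NF wells were cardiomyocyte-like, whose part in the Erbb4 values was not tested. Summed fibroblast markers were at 10660 in AF and 4634 in NF. Of 219 AF wells 162 were fibroblast-like and 39 unnamed, and of 256 NF wells 71 and 145. Their part in the Egfr and Ereg ratios was not tested. Nrg1 overlapped, at 13.8 and 1.45 in AF against 5.66 and 4.41 in NF, and 82.8% of the 64 UMIs of AF1 came from 3 wells. Of 6 members with enough UMIs, 2 were higher in both AF Types and 1 lower, beside 27.4% and 16.4% of 13832 genes. In fibroblast-like wells alone Egfr was at 33.4 (29.4 to 37.8) in AF and 13.6 (9.33 to 19.04) in NF. The shares of these wells with an Egfr UMI did not differ beyond their intervals. They were 17.9% (12.3 to 24.7) in AF and 21.1% (12.3 to 32.4) in NF, at median depths of 38111 and 26400 UMIs. At an equal depth per well the shares were 13.2% and 10.1%. Ereg in fibroblast-like wells was at 136.3 (128.1 to 144.9) in AF and 142.5 (127.9 to 158.4) in NF, which did not differ beyond their intervals. The fibroblast-like wells of AF lay mostly in cluster 3 and those of NF in cluster 2.

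The AF0 Types also stood above the AF Types, with which they share no wells. Nrg1, Egfr, Hbegf and Ereg were higher in both AF0 Types, at pooled ratios of 2.76, 1.45, 1.956 and 1.798. These were 4 of 6 members, with none lower, beside 28.0% of 14253 genes higher and 26.4% lower. Between AF0 and AF the summed epicardial or mesothelial markers were at 346.9 and 18.5 CPM, fibroblast markers at 6530 and 10660 and endothelial markers at 462.0 and 369.6, and their part was not tested. The NF0 and NF Types gave another picture, with Ereg and Nrg1 lower in NF0 at ratios of 0.556 and 0.568 and Areg higher on 28 UMIs. These were 1 member higher and 2 lower of 7, beside 27.6% and 14.6% of 14132 genes. Hbegf overlapped there, at 172.7 and 232.1 in NF0 and 294.9 and 193.6 in NF. Summed endothelial markers were at 118.6 in NF0 and 275.2 in NF, macrophage markers at 759.4 and 270.0 and fibroblast markers at 6860 and 4634, and their part was not tested.

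On the cardiomyocytes chip, Egfr and Ereg were the members that set the AFNCM wells apart. Egfr was at 7.002, 11 and 9.02 CPM in the AFNCM Types and at 4.55, 2.01 and 2.60 in the NFNCM Types, and the pooled levels were 9.28 (7.81 to 10.95) and 2.99 (2.12 to 4.08). Ereg was at 52.1, 47.0 and 59.4 against 30.9, 18.7 and 13.6, with pooled levels of 53.0 (49.4 to 56.8) and 20.6 (18.2 to 23.2). All 3 AFNCM Types lay above all 3 NFNCM Types for both genes. Those were 2 of 8 members higher and none lower, beside 13.4% of 15288 genes higher and 5.42% lower. In the sorted bulk cardiomyocytes the same pair gave other directions: Egfr lay lower in imCM-AF and Ereg overlapped. Hbegf, which also lay lower in imCM-AF, was not lower in AFNCM. Its pooled levels were 307.4 (298.6 to 316.3) in AFNCM and 274.9 (266.0 to 284.1) in NFNCM, while the Types overlapped. The receptors of neuregulin overlapped between the names, Erbb4 with 3.92, 7.98 and 1.70 against 1.01, 4.90 and 7.14, and Erbb2 with 4.76, 7.45 and 8.34 against 5.57, 11.1 and 5.84.

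The names also differed in the cells they held. Of 515 AFNCM wells 204 were cardiomyocyte-like, 106 fibroblast-like and 56 endothelial-like, and of 523 NFNCM wells the numbers were 344, 32 and 10. Summed fibroblast markers were at 2644 to 3440 CPM in the AFNCM Types and 1174 to 1963 in the NFNCM Types, the reverse of the bulk libraries, and endothelial markers at 420.7 to 612.5 and 40.1 to 219.6. Within cardiomyocyte-like wells Egfr was at 4.05 (2.79 to 5.69) in AFNCM and 0.525 (0.171 to 1.23) in NFNCM, from 33 and 5 UMIs, and at 6.54 (4.47 to 9.23) in NCM0. Of the AFNCM UMIs 54.6% came from 3 wells, and of the NCM0 UMIs 84.4%. The cardiomyocyte-like wells of AFNCM lay mostly in cluster 9, led by Sprr and interferon-response genes, while those of NFNCM lay mostly in cluster 1. Within fibroblast-like wells Egfr was at 23.9 (18.95 to 29.8) and 24.6 (16.3 to 35.6), which did not differ beyond their intervals. Those wells lay in cluster 3 for AFNCM and nearly all in cluster 2 for NFNCM. This Egfr result depended on how the classes were set. At a clustering resolution of 0.5 AFNCM stayed at 23.9, but NFNCM was at 12.5 (8.58 to 17.5), with intervals apart. With classes set by marker share the levels were 19.7 and 12.9, with overlapping intervals. With 15 neighbours they were 17.0 and 24.2, and without the UMI limit 17.1 and 20.2, with NFNCM the higher.

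Ereg within cardiomyocyte-like wells was at 16.8 (14.1 to 19.9) in AFNCM, 10.7 (8.74 to 13.0) in NFNCM and 4.08 (2.495 to 6.31) in NCM0. The NFNCM value was 1.87 to 1.89 under the 3 settings that gave a smaller cardiomyocyte-like class, where the AFNCM value was 17.0 to 17.4. Within fibroblast-like wells Ereg was at 151.2 (138.3 to 164.9) in AFNCM and 73.8 (58.9 to 91.4) in NFNCM. Without the UMI limit those were 131.2 and 117.1 with overlapping intervals.

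**Figure D5:**
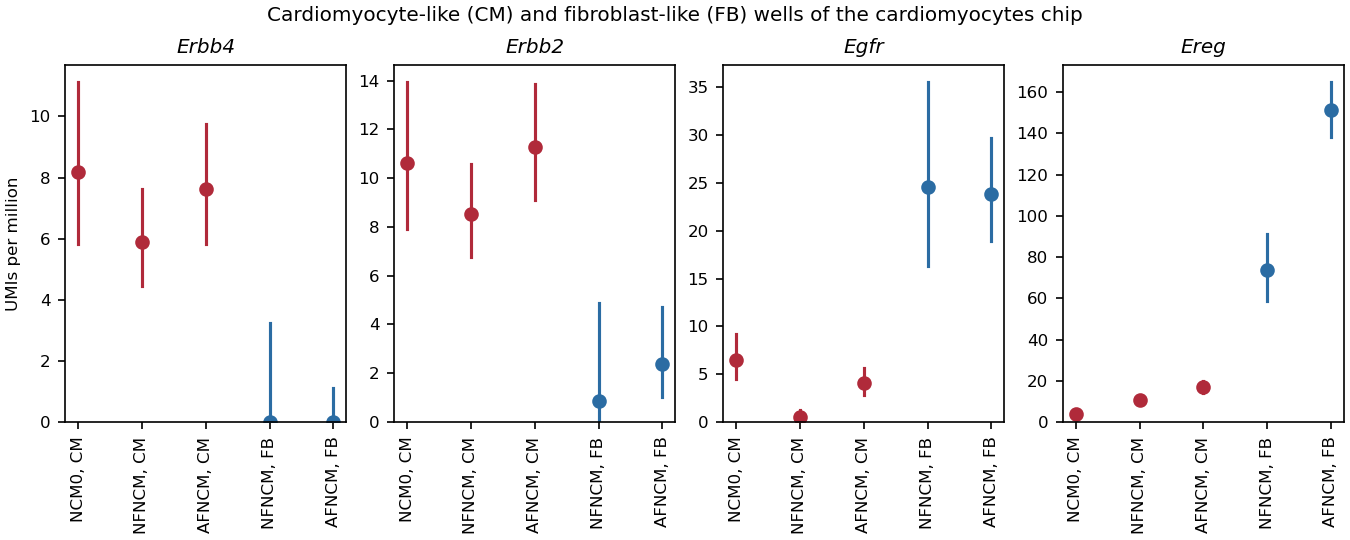
CPM of 4 genes in the cardiomyocyte-like wells (CM, red) of NCM0, NFNCM and AFNCM and the fibroblast-like wells (FB, blue) of NFNCM and AFNCM, with 95% exact Poisson intervals. Erbb4 and Erbb2 are higher in the cardiomyocyte-like wells, Egfr and Ereg in the fibroblast-like wells, and Ereg in fibroblast-like wells is at 151.2 in AFNCM and 73.8 in NFNCM.

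Erbb4 in cardiomyocyte-like wells was at 7.61 (5.84 to 9.76) in AFNCM, 5.89 (4.45 to 7.64) in NFNCM and 8.17 (5.84 to 11.1) in NCM0, and Erbb2 was at 11.3 (9.10 to 13.9), 8.51 (6.76 to 10.6) and 10.6 (7.93 to 13.9). None of these neighbours differed beyond their intervals. Nrg1 in the same wells had 6, 7 and 1 UMIs, and in AFNCM its highest level was in endothelial-like wells, at 4.77 (2.18 to 9.06). Hbegf in cardiomyocyte-like wells was at 344.9 (332.3 to 357.9) in AFNCM, 313.4 (302.2 to 324.8) in NFNCM and 394.8 (377.4 to 412.8) in NCM0. Over all wells of a name Hbegf was at 523.4 and 396.0 in the NCM0 Types, above the 3 NFNCM Types at 224.6 to 305.1 and the 3 AFNCM Types at 254.6 to 356.5. Of the 1221 Hbegf UMIs of the higher NCM0 Type, however, 49.5% came from 3 wells and 453 from 20 unnamed wells. Its cardiomyocyte-like wells were at 376.2 (349.2 to 404.7), within the range of the AFNCM Types (268.5 to 394.0) and not apart from the highest NFNCM Type at 371.1 (347.6 to 395.7). Type by Type, NCM0 thus did not stand clear within that class. Its pooled level there was still the highest, at 394.8, with an interval apart from those of AFNCM and NFNCM. Against NFNCM, 1 of 6 members was higher in both NCM0 Types and none lower, beside 14.9% and 12.0% of 13949 genes. Against AFNCM, Hbegf and Erbb2 were higher and Ereg lower, 2 and 1 of 8 members, beside 13.5% and 20.5% of 14676 genes. These comparisons share the NCM0 wells, and the pairs above share the AF0, NF0, AF and NF wells in the same way.

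Over 33 pools of at least 20 wells of 1 Type and class, the genes whose log2 levels ran most like a member were described by Pearson's r, with no test, since the pools share chips and differ in depth. For Ereg they were Fosl1 (r = 0.854), which encodes an AP-1 transcription factor, Aebp1 (0.797) and Bgn (0.796), which encodes the matrix proteoglycan biglycan. For Egfr they were Cd248 (0.847), a stromal cell surface marker, Magee1 (0.821) and Plod3 (0.810), which encodes a collagen-modifying enzyme. Erbb4 ran with Gm6822 (0.775), Ndufa3 (0.772), which encodes a subunit of respiratory complex I, and Ankrd9 (0.769). Nrg1 ran with St6galnac4 (0.723), Bmp4 (0.690) and Rab7 (0.688), Hbegf with Map3k20 (0.754), Nbdy (0.714) and Prrc2b (0.697), and Erbb2 with Rcor1 (0.673), Rsph3b (0.672) and Vps53 (0.662).

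The pathway genes around the members followed the same classes only in part. The 10 ligand-shedding genes summed to 537.9 CPM in fibroblast-like wells, 658.4 in the AF0 cluster, 527.0 in macrophage-like, 474.0 in endothelial-like and 219.7 in cardiomyocyte-like wells. Adam15 itself was at 34.9, 64.1, 18.7, 47.0 and 4.13 in the same order. In fibroblast-like wells, the AF0 cluster and cardiomyocyte-like wells, Fos was at 113.7, 68.1 and 245.9 and Phlda1 at 40.4, 71.8 and 59.1. Between names, Fos was at 278.1 in AFNCM and 174.5 in NFNCM and Phlda1 at 73.4 and 58.1, the same order as between the bulk groups. The 7 EGF-family ligands outside the members summed to between 3.12 and 5.43 CPM in each named class and in the AF0 cluster.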

How the data were processed

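Bulk RNA-seq was taken from 4 libraries and single cells from 2 nanowell chips. The deposited bulk table holds raw read counts per gene, which the authors made with Subread and featureCounts on mm10; the deposited single-cell tables hold UMI counts per well, which the authors made with STAR 2.5.2b, and a list of wells with their names. The deposited well list also gives read counts per well, from which the aligned share was taken.

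Genes with over 1 CPM in at least 2 libraries were tested with edgeR 4.0.16 (TMM, quasi-likelihood; R 4.3.3), with DESeq2 1.42.0 and limma-voom 3.58.1 as alternatives; edgeR and DESeq2 were checked on simulated counts. The SE is the absolute log2 fold change divided by the root of F, and its 95% interval is normal. Bulk genes without a matched symbol (1904) held 3.52% of the counts. Wells were clustered on 2261 variable genes, 10 components, 30 neighbours and Leiden resolution 1 (leidenalg 0.10.2). A class needed at least 3 raised markers (log2 ratio over 1, in over 10% of wells). Each Type held 2332965 to 7590702 UMIs. Samples were grouped by the labelled co-cultured cell type. Intervals and limits (3 counts for a count of 0) cover counting error only.

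The genes named are the 8 members, each called gene of a pathway list or else its gene with the largest difference, and for each member with at least 200 UMIs the 3 genes of at least 500 UMIs most correlated with it. Members, lists and markers were chosen with earlier results of these data known. Spans and promoters come from RefSeq, exon lengths from GENCODE.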

Additional observations from a re-analysis of the deposited data

How the results depend on the processing

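In the bulk comparison no member was called under any of the alternatives run (other scalings, filters, DESeq2, limma-voom, the replicate block and each library left out). The number of genes called in all ranged from 879 (without imCM-NF 2) and 988 (without imCM-AF 2) to 1929 with 1 library left out, and was 3789 on adjusted p alone. Upper-quartile scaling turned the log2 fold changes of Areg and Ereg to 0.0028 and 5e-04. With 1 library left out, that of Areg ranged from -0.34 to 0.27, that of Ereg from -0.19 to 0.17 and that of Nrg1 from -0.36 to 0.0447 (positive without imCM-NF 2), positive values of Areg coming without imCM-NF 1 (0.2725) or imCM-AF 2 (0.124) and of Ereg without imCM-NF 2 (0.1704) or imCM-AF 2 (0.0679). With the replicate block, 1430 genes were called and the adjusted p of Egfr was 0.0561; the numbers share only a number in the labels, and a crossed block, added after seeing the data because same-numbered libraries deviated apart (correlation -0.131), called 1668. The 4 members higher in fibroblast-like than cardiomyocyte-like wells, the 4 higher in both AF0 Types than both NF0 Types and the 2 higher in all AFNCM than all NFNCM Types were the same genes under every setting tried for each, though Nrg1 was not higher in fibroblast-like wells of the cardiomyocytes chip. Of 264 alternative single-cell levels, 70 left the 95% interval, and of 147 that rest on at least 50 UMIs, 9 moved by over 1.5 times; among these, as a mean over wells, Erbb4 was 10.3 CPM in AFNCM wells in place of 4.57 and 11.5 in cardiomyocyte-like wells in place of 7.46, and Nrg1 in fibroblast-like wells was 8.30 with classes set by marker share in place of 3.77. Depth limits Erbb3, Areg and, in bulk, Erbb4.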
